A study of Mus musculus with 6 samples.

Results

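The genes described here act in G2 and mitosis, the last stages of the cell cycle, in which a cell that has copied its DNA separates the copies and divides. They are 40 genes chosen by function (mitotic cyclins and their kinases, the spindle, the kinetochore and cytokinesis), out of 20887 genes named on the array. All 40 had a probe, through 56 probes in all. RNA came from 6 pools of sorted mouse kidney cells, 3 called WT and 3 called MUT. Both groups were C57BL/6 mice of postnatal day 1 whose newborn kidneys had been salt-stressed. Both also carried Hoxb7cre, a Cre recombinase driven by a promoter active in the ureteric bud lineage, and R26RtdTomato, a red reporter that Cre switches on. WT pools were Bdkrb2 +/+ and MUT pools Bdkrb2 f/f, so that the gene of the bradykinin B2 receptor was deleted where Cre had acted. Cells positive for GFP and tdTomato were sorted, and the labels call them collecting duct cells derived from the ureteric bud. How many mice made up a pool is not stated in the sources used. On every array the pool carried Cy5 and a shared reference carried Cy3. The reference was the RNA of WT pool 1, which its own array therefore set against itself. Every value below is a log2 ratio of a pool to WT pool 1 RNA, or a difference of such ratios, MUT minus WT.

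Entry into mitosis is driven by Cdk1 bound to cyclin A or cyclin B, which is held back by inhibitory phosphates until Cdc25 phosphatases remove them. Microtubule motors then build the spindle, kinetochores attach the chromosomes to it, and the spindle checkpoint holds back the anaphase-promoting complex until every chromosome is attached. That complex marks cyclin B for destruction, the chromosomes part, and a contractile ring cuts the cell apart. Most RNAs of this group rise and fall with the cell cycle, so they are used as marks of dividing cells. In the newborn mouse kidney nephron progenitors, stroma and the tips of the ureteric tree still divide, while the trunks mature into collecting ducts.

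These genes were higher in the MUT pools. Of 39 that could be tested, 38 had a difference above 0, and 30 rose at a Benjamini-Hochberg adjusted p under 0.05 in limma (called higher below), while 1, Cdc25b, fell. Over all 14585 tested genes 14.0% were called higher and 18.8% were called lower. Every MUT pool was above every WT pool for 36 of the 39, against 24.2% of all tested genes. The median difference was 0.52, with quartiles of 0.38 and 0.68 and a range of -0.55 to 1.18, while the median over all tested genes was -0.016. Differences were moderate: 20 genes reached 0.5, and Kif15 alone reached 1. The median over the 39 genes was 0.016, 0.052 and 0.063 in WT pools 1, 2 and 3, and 0.63, 0.50 and 0.61 in MUT pools 1, 2 and 3. MUT pool 1 was the highest pool for 21 of the 30 genes called higher (70%), as it was for 64.8% of all genes called higher. Ttk and Cenpf were tested because all MUT arrays, but not all WT arrays, had them well above background, and without them 29 of 37 genes were called higher. In bulk RNA, more dividing cells and more of these RNAs per cell cannot be told apart.

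The count of calls moved with single pools. For each gene called higher every MUT pool was above every WT pool, so leaving out 1 pool could not turn the direction. Without WT pool 1 the count was 19, without WT pool 3 it was 18, and in the other fits without 1 pool it was 21 to 32. The share of all tested genes called higher moved too. It was 9.76% without WT pool 1, 6.83% without WT pool 3 and 10.33% to 16.11% in the others, beside 14.0% with all pools. Of the 30 genes, 17 kept their call in all 6 such fits. WT pools 2 and 3 lay in another row of the slide than the other 4 arrays. With row as a block the comparison rests on the 3 MUT pools against WT pool 1 alone. The count then was 4 (Ccna2, Cenpe, Nuf2 and Top2a), beside 3.44% of all tested genes, while the median difference was 0.52. The second row held WT pools alone, so no comparison can be made within it.

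**Figure D1:**
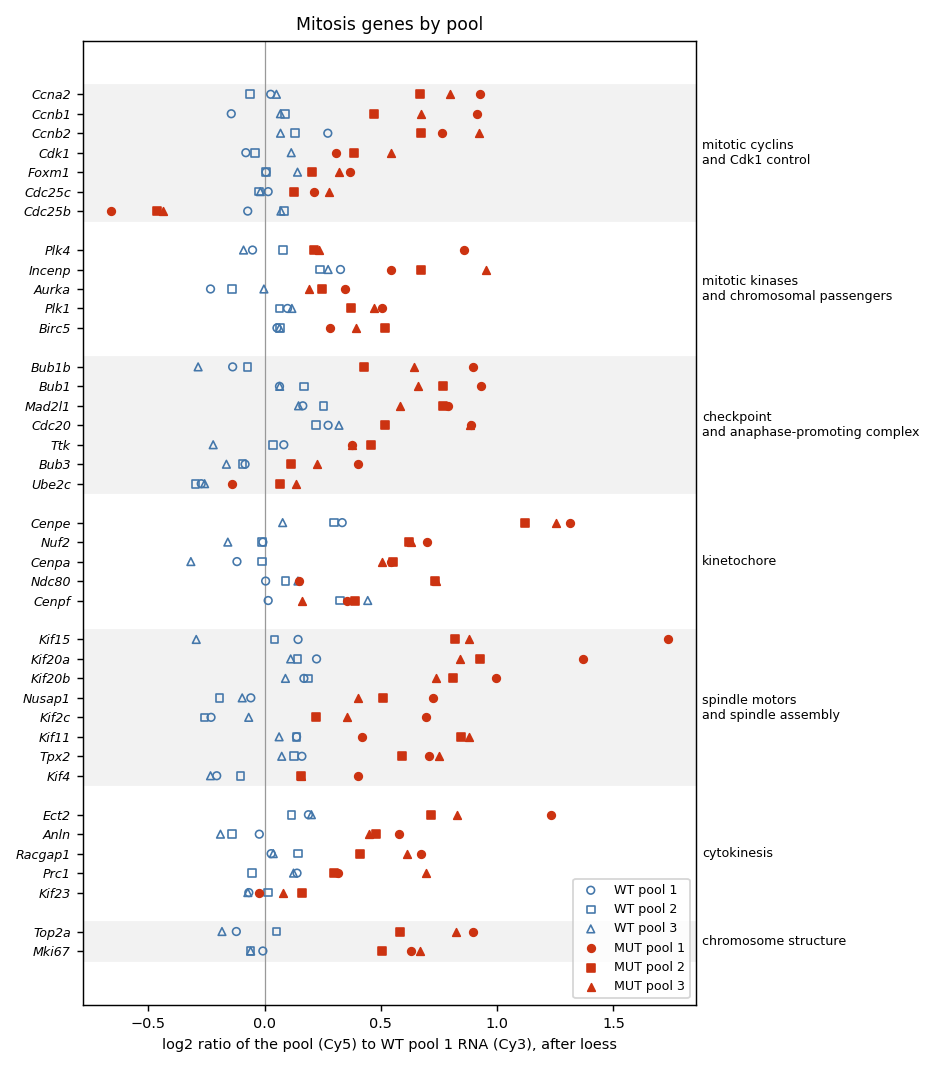
Log2 ratio of each pool to WT pool 1 RNA (horizontal axis) for the 39 tested mitosis genes, in rows grouped by role, with open blue symbols for the 3 WT pools and filled red symbols for the 3 MUT pools. The red symbols lie to the right of the blue ones in 36 rows, to the left in the Cdc25b row, and among them in the Kif23 and Cenpf rows.

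Facts of the whole series bear on these values. Of 55681 probes 27022 to 28643 stood well above background in Cy5 on the WT arrays and 30818 to 31310 on the MUT arrays. Precision is limited by there being 3 arrays a group. Log2 ratios of tested probes had an SD of 0.15 to 0.25 on the WT arrays and of 0.50 to 0.65 on the MUT arrays. Probe by probe, MUT pools 2 and 3 differed least, with an SD of 0.21 between them, against 0.45 between either of them and MUT pool 1. Of 29002 tested probes 26.1% were called, and 44.2% of these were higher in MUT. That share was 77.3% with each array centred on its median in place of loess, and 98.9% with each array scaled to its spike-in controls. No array had the single Bdkrb2 probe well above background in either channel. It gave log2 ratios of 0.12, 0.086 and -0.16 in WT pools and -0.023, 0.050 and -0.080 in MUT pools, and does not check the deletion.

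Promoter sequences are shown for 6 of the genes because many mitosis promoters share a pair of elements. These are the CHR (cell cycle genes homology region), through which MuvB complexes such as DREAM act, and the CCAAT box, which binds NF-Y. The CHR was searched as TTTGAA or TTCGAA and the CCAAT box as CCAAT, on both strands, in RefSeq promoter windows of GRCm38.p6 that run from 250 bases before a start of transcription to 50 bases after it. The lines below give the 110 bases before the start, 5′ to 3′ along the gene's own strand, with matches to either element in capitals. The first 4 genes were called higher, Ube2c was not called and Cdc25b was called lower.
Cdk1, chr10:69352913-69353022, minus strand: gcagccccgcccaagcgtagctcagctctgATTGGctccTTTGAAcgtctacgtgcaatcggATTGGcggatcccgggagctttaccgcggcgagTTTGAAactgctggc
Cdc20, chr4:118437344-118437453, minus strand: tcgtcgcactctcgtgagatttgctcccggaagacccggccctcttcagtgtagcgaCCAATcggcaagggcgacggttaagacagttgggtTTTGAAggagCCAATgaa
Top2a, chr11:99024190-99024299, minus strand: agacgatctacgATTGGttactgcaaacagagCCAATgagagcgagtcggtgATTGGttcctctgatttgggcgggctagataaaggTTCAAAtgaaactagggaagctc
Kif11, chr19:37376272-37376381, plus strand: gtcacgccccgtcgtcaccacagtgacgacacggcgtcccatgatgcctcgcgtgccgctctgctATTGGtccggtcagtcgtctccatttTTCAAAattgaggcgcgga
Ube2c, chr2:164769819-164769928, plus strand: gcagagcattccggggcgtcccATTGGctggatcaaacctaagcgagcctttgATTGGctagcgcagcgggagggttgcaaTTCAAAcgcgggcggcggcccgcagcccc
Cdc25b, chr2:131186838-131186947, plus strand: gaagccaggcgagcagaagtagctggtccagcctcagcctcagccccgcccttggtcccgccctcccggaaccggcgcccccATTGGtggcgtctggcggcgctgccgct

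These genes were picked after their windows were seen. Counted between their first bases, a CCAAT match lay 33 bases before a CHR match in Cdk1, 35 in Cdc20, 35 in Top2a, 26 in Kif11 and 28 in Ube2c. In Cdc25b the spacing was also 35, but its CHR match begins at base 8 after the start and so lies outside the line shown. Over all pairs of a CHR match and the nearest CCAAT match before it, 26 in 21 genes, the spacing ran from 9 to 153 bases with a median of 32.5, and Cdk1 and Top2a hold closer pairs too. Windows were found for 33 of the 40 genes, and none for Kif20a, Tpx2, Aurkb, Incenp, Foxm1, Ccna2 and Cdc25c in the table used here. A CHR match was in 26 of the 33 genes, and in 29 of their 36 windows (80.6%), against 19.2% of all 32851 windows of the same length. A CCAAT match was in 72.2% of the windows, against 37.4% of all. Both were in 66.7%, against 7.52% of all. In the windows of the genes called higher these shares were 78.57% for a CHR match, 71.43% for a CCAAT match and 64.29% for both. Some windows of a gene overlap, and a site in both was counted once for its position. Of 37 CHR sites 26 lay within 50 bases of a start, and 18 of the 37 lay after it. Windows end 50 bases after the start, so sites after it lie that near by construction. Of 50 CCAAT sites 1, in Ect2, lay after a start, and it lay before the other start of that gene. The DNA replication genes used below for comparison held a CHR match in 4 of 17 genes and a CCAAT match in 13 of 17. By window these shares were 21.05% and 73.68%. In windows of the Cdk inhibitors and anti-proliferative genes described below they were 8.33% and 58.33%. Outside the mitosis lists, 13.9% of 733 tested genes with both motifs were called higher, beside 13.2% of 9604 tested genes with a window and no CHR match. A match is a stretch of letters, and binding there was not measured.

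The mitotic cyclins and the genes that set Cdk1 activity had 4 of 7 members higher and 1 lower. Ccna2, cyclin A2, which acts in S phase and at the entry into mitosis, read 0.026, -0.063 and 0.051 in WT pools 1, 2 and 3 and 0.93, 0.67 and 0.80 in MUT pools 1, 2 and 3. Every MUT pool was well above the WT pools, and the difference was 0.79 ± 0.11 (SE; 1.73-fold; adjusted p = 0.00177). Ccnb2, a B-type cyclin, had WT values of 0.27, 0.13 and 0.069 and MUT values of 0.76, 0.67 and 0.92. Its groups did not overlap, with a difference of 0.63 ± 0.11 (adjusted p = 0.00556). Ccnb1, the cyclin B1 that forms the main mitotic kinase with Cdk1, differed by 0.68 ± 0.14 (adjusted p = 0.00949). Cdk1 itself differed by 0.42 ± 0.11 (adjusted p = 0.0278). Cdc25c, a Cdk1-activating phosphatase, differed by 0.21 (95% interval -0.0054 to 0.43; adjusted p = 0.136). Foxm1, a transcription factor of G2 and mitosis genes, differed by 0.25 (95% interval 0.015 to 0.48; adjusted p = 0.109). Neither passed the test, although for both every MUT pool was above every WT pool on the probe used. A second Foxm1 probe, well above background on all 6 arrays, differed by -0.042 (adjusted p = 0.848), and its groups overlapped.

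Cdc25b, the phosphatase that starts Cdk1 activation in G2, was the 1 gene that fell. It read -0.072, 0.084 and 0.070 in WT pools 1, 2 and 3 and -0.66, -0.46 and -0.44 in MUT pools 1, 2 and 3. All MUT pools lay below all WT pools, with a difference of -0.55 ± 0.11 (1.46-fold lower; adjusted p = 0.00857), where 28.3% of all tested genes had every MUT pool below every WT pool. The call held in all 6 fits without 1 pool, with adjusted p up to 0.0474. It was lost with median centring (-0.26, adjusted p = 0.356) and with slide row as a block (-0.45, adjusted p = 0.150), and the sign turned with spike-in scaling (0.41, adjusted p = 0.312). Median centring put the median of all tested genes at 0.25 and spike-in scaling put it at 0.94, so Cdc25b stayed below that median in both. With spike-in scaling this was set in advance, as it shifts all probes of an array by the same amount. Ccna2 kept its call in all 19 alternatives and Ccnb1 and Ccnb2 in all 6 fits without 1 pool. Cdk1 kept it in 1 of these 6, with adjusted p up to 0.101.

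The mitotic kinases and the chromosomal passenger complex, which corrects faulty attachments and guides cytokinesis, had 4 of 5 tested genes higher. Plk1, the polo-like kinase that acts from mitotic entry to cytokinesis, read 0.099, 0.065 and 0.12 in WT pools and 0.51, 0.37 and 0.47 in MUT pools. The MUT values were close together and above all WT values, by 0.35 ± 0.094 (adjusted p = 0.0274). Aurka, the Aurora A kinase of spindle poles, read -0.23, -0.14 and -0.0026 in WT pools and 0.35, 0.25 and 0.19 in MUT pools. Its highest WT pool and lowest MUT pool were closer than those of Plk1, and the difference was 0.39 ± 0.11 (adjusted p = 0.0316). Incenp, the scaffold of the passenger complex, read 0.33, 0.24 and 0.27 in WT pools and 0.54, 0.67 and 0.95 in MUT pools. MUT pool 3 was the highest there, and the groups differed by 0.44 ± 0.12 (adjusted p = 0.0344). Birc5, or survivin, another member of that complex, differed by 0.33 ± 0.10 (adjusted p = 0.0448). Plk4, which controls centriole duplication, differed by 0.46 (95% interval 0.043 to 0.87; adjusted p = 0.0987). MUT pool 1 set it apart, at 0.86 against 0.21 and 0.24 in MUT pools 2 and 3. The 1 probe of Aurkb, the Aurora B kinase of the passenger complex, stayed near background on all 6 arrays, so Aurkb was not tested. In the 6 fits without 1 pool Plk1 kept its call in 2, and Aurka, Incenp and Birc5 in 1 each, with adjusted p up to 0.09, 0.114, 0.116 and 0.137.

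The spindle checkpoint and the anaphase-promoting complex it restrains had 6 of 7 genes higher. Bub1, a checkpoint kinase at kinetochores, read 0.064, 0.17 and 0.065 in WT pools and 0.93, 0.77 and 0.66 in MUT pools. The groups stood well apart, with a difference of 0.69 ± 0.11 (adjusted p = 0.00339). Bub1b, which encodes BubR1 of the mitotic checkpoint complex, read -0.14, -0.073 and -0.29 in WT pools and 0.90, 0.43 and 0.64 in MUT pools. It had the largest difference of this role, 0.82 ± 0.14 (1.77-fold; adjusted p = 0.00454). Mad2l1, which encodes the checkpoint protein Mad2, read 0.16, 0.25 and 0.15 in WT pools and 0.79, 0.77 and 0.58 in MUT pools. MUT pools were again all higher, by 0.52 ± 0.10 (adjusted p = 0.00854). Cdc20, the activator that the checkpoint holds back, differed by 0.49 ± 0.13 (adjusted p = 0.0248). Ttk, the Mps1 kinase that starts checkpoint signalling, differed by 0.44 ± 0.11 (adjusted p = 0.0254), and Bub3, which binds Bub1 and BubR1, by 0.36 ± 0.11 (adjusted p = 0.0433). The Ttk probe was well above background on 2 WT arrays and 3 MUT arrays, so it was tested through the group where it was higher. Ube2c, the ubiquitin-conjugating enzyme of the anaphase-promoting complex, differed by 0.30 (95% interval 0.049 to 0.54; adjusted p = 0.0784) and of the 6 fits without 1 pool was called in that without MUT pool 1 (0.38, adjusted p = 0.0159). Bub1, Bub1b and Mad2l1 were called in all 6 fits without 1 pool, Cdc20 and Ttk in 2 and Bub3 in 1, with adjusted p up to 0.0775, 0.101 and 0.153.

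Among the kinetochore genes 3 of 5 were higher. Cenpe, a kinesin that carries chromosomes to the middle of the spindle, read 0.33, 0.30 and 0.078 in WT pools and 1.31, 1.12 and 1.25 in MUT pools. The difference was 0.99 ± 0.11 (1.99-fold), with the smallest adjusted p of the 39 genes (0.000926). Nuf2, a subunit of the Ndc80 complex that binds microtubules, read -0.0071, -0.010 and -0.16 in WT pools and 0.70, 0.62 and 0.63 in MUT pools. Its MUT pools lay close together, and the difference was 0.71 ± 0.097 (adjusted p = 0.00192). Cenpa, the histone H3 variant that marks centromeres, read -0.12, -0.0095 and -0.32 in WT pools and 0.54, 0.55 and 0.51 in MUT pools. It differed by 0.68 ± 0.11 (adjusted p = 0.00377). All 3 calls held in the 6 fits without 1 pool, and those of Cenpe and Nuf2 in all 19 alternatives. Ndc80, the partner of Nuf2, differed by 0.46 (95% interval 0.072 to 0.85; adjusted p = 0.0803). MUT pool 1 read 0.15 for it, near the highest WT pool at 0.14, while MUT pools 2 and 3 read 0.73 and 0.74, and without MUT pool 1 it was called (0.66, adjusted p = 0.00112). Cenpf, a large kinetochore protein of late G2 and mitosis, differed by 0.040 (95% interval -0.28 to 0.36; adjusted p = 0.856), its groups overlapped, and its sign turned without WT pool 1 (-0.083), without MUT pool 2 (-0.0034) and with the Cy5 channel alone (-0.10). Its probe was well above background on 1 of the WT arrays and all 3 MUT arrays.

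All 8 spindle motors and spindle assembly genes were higher. Kif20b, a kinesin of the midzone, read 0.17, 0.19 and 0.090 in WT pools and 1.00, 0.81 and 0.74 in MUT pools. The groups were far apart, by 0.70 ± 0.11 (adjusted p = 0.00293). Kif20a, the kinesin that brings passenger proteins to the midzone, read 0.22, 0.14 and 0.11 in WT pools and 1.37, 0.93 and 0.84 in MUT pools. MUT pool 1 was highest, and the difference was 0.89 ± 0.15 (1.85-fold; adjusted p = 0.00442). Tpx2, which activates Aurora A and nucleates microtubules, read 0.16, 0.13 and 0.074 in WT pools and 0.71, 0.59 and 0.75 in MUT pools. It differed by 0.56 ± 0.097 (adjusted p = 0.00491). Kif15, a kinesin that helps keep the spindle poles apart, had the largest difference of the 39 genes, 1.18 ± 0.25 (2.26-fold; adjusted p = 0.0112). MUT pool 1 read 1.73 for it and MUT pools 2 and 3 read 0.82 and 0.88, and it was not called without WT pool 3 (1.05, adjusted p = 0.0569). Nusap1, a microtubule-bundling protein, differed by 0.66 ± 0.12 (adjusted p = 0.00508). Kif2c, a microtubule-depolymerising kinesin, differed by 0.61 ± 0.14 and Kif4, a chromosome-bound kinesin, by 0.42 ± 0.11 (adjusted p = 0.0162 and 0.0266). Kif11, the Eg5 motor that pushes the poles apart, differed by 0.60 ± 0.14 (adjusted p = 0.0167), and there MUT pool 1 was the lowest MUT pool, at 0.42 against 0.84 and 0.88. In the 6 fits without 1 pool Kif2c and Kif4 kept their calls in 4 and Kif11 in 2, with adjusted p up to 0.0617, 0.109 and 0.0749, and the other 4 genes beside Kif15 kept them in all.

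Of the cytokinesis genes 3 of 5 were higher. Anln, the ring protein anillin, read -0.022, -0.14 and -0.19 in WT pools and 0.58, 0.48 and 0.45 in MUT pools. No pools overlapped, and the difference was 0.62 ± 0.10 (adjusted p = 0.00371). Ect2, the exchange factor that activates RhoA at the cell's equator, read 0.19, 0.12 and 0.20 in WT pools and 1.23, 0.72 and 0.83 in MUT pools. MUT pool 1 stood above the other MUT pools, and the groups differed by 0.76 ± 0.14 (adjusted p = 0.00738). Racgap1, which forms centralspindlin with the kinesin of Kif23, read 0.028, 0.14 and 0.038 in WT pools and 0.67, 0.41 and 0.61 in MUT pools. It differed by 0.49 ± 0.11 (adjusted p = 0.0132), and was not called without WT pool 1 (adjusted p = 0.0549) or WT pool 3 (adjusted p = 0.0632). Prc1, which bundles midzone microtubules, differed by 0.37 (95% interval 0.053 to 0.68; adjusted p = 0.0838), and was called without MUT pool 1 (0.43, adjusted p = 0.0366). Kif23 differed by 0.11 (95% interval -0.12 to 0.34; adjusted p = 0.432), and its groups overlapped.

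Both genes of chromosome structure were higher. Top2a, the topoisomerase that untangles sister DNA, read -0.12, 0.052 and -0.18 in WT pools and 0.90, 0.58 and 0.82 in MUT pools. It differed by 0.85 ± 0.12 (1.80-fold; adjusted p = 0.00233), a call that held in all 19 alternatives. Mki67, which encodes the Ki-67 protein that coats mitotic chromosomes, read -0.0071, -0.060 and -0.060 in WT pools and 0.63, 0.50 and 0.67 in MUT pools. It differed by 0.64 ± 0.096 (adjusted p = 0.00276), and was called in all 6 fits without 1 pool.

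**Figure D2:**
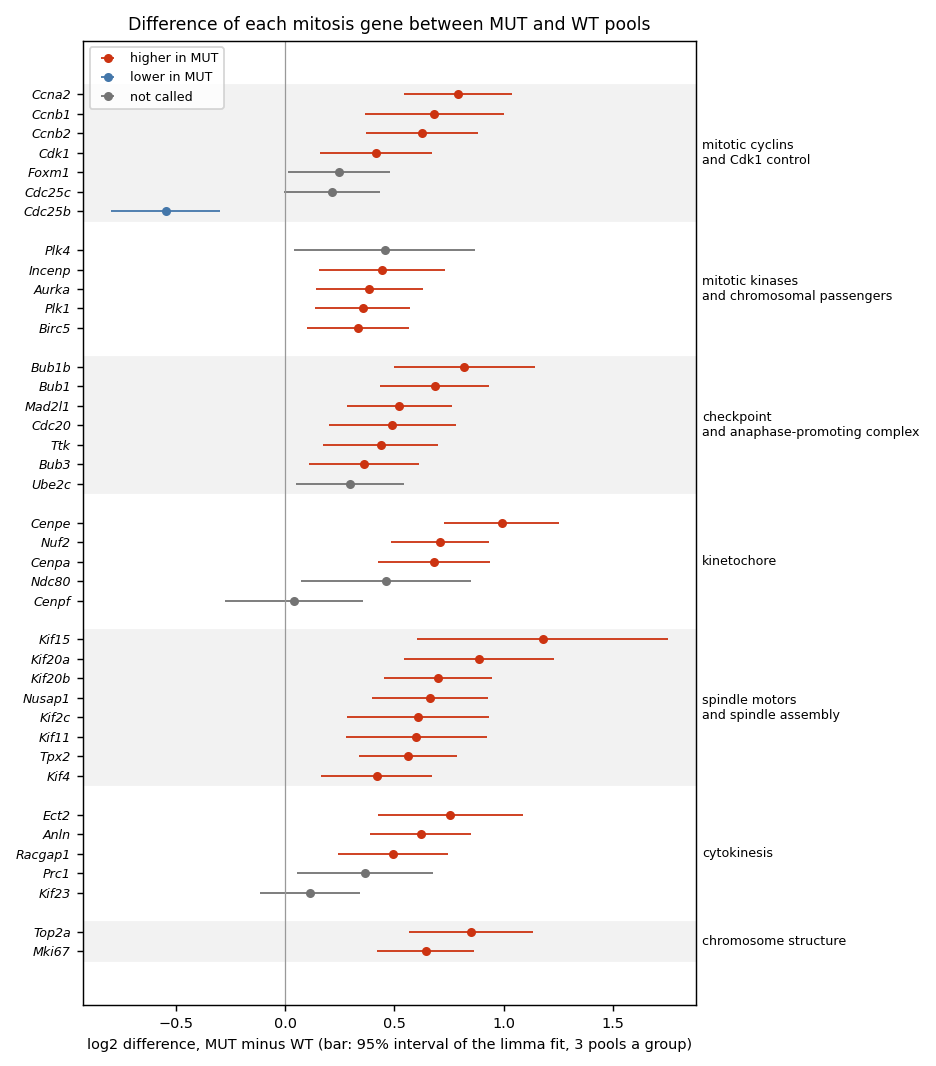
Difference between MUT and WT in log2 (points, horizontal axis) with its 95% interval from the limma fit (bars, 3 pools a group) for each of the 39 genes, grouped by role and coloured by call. The 30 red points run from 0.33 to 1.18, the single blue point is Cdc25b at -0.55, and the 8 grey genes were not called.

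By role, the median difference was 0.42 for the cyclins and Cdk1 control, 0.39 for the kinases and passengers, 0.49 for the checkpoint, 0.68 for the kinetochore, 0.64 for the spindle, 0.49 for cytokinesis and 0.75 for the 2 chromosome genes. No test between roles was made. Some genes had other probes, which gave a further reading of the same RNA. Of 53 tested probes of these genes, which include the 39 used above, 38 were called higher and 1 lower. Over all tested probes 11.6% were called higher. Of the 53, 50 had a difference above 0, and those below it were Cdc25b and the second probes of Cdk1 and Foxm1. Among 11 genes with several tested probes, all probes of 6 were called higher (Birc5, Incenp, Kif2c, Mki67, Racgap1 and Tpx2). Some probes of 3 were called: 1 of 3 for Ccnb1, 2 of 3 for Mad2l1 and 1 of 2 for Cdk1. The other Ccnb1 probes differed by 0.31 and 0.58 (adjusted p = 0.0544 and 0.0568). The second Cdk1 probe differed by -0.070 (adjusted p = 0.709) and was well above background on 1 WT array. The remaining probe of Cdk1 and the other probe of Nuf2 were too dim to be tested. No probe of Foxm1 or Ube2c was called, and the groups overlapped for the second probe of each (-0.042 and 0.26).

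Mitosis genes outside the 40 moved in the same direction. In a list of 78 others (cohesion, condensin, further kinetochore, spindle and midbody genes) 77 were tested, and 48 were higher and 0 lower in limma. Over all tested genes these shares were 14.0% and 18.8%. At an unadjusted p under 0.05 in the same fit 59 were higher and 2 lower, beside 3034 and 3656 of all 14585 tested genes. The median difference was 0.49, and 72 were above 0. Hjurp, the chaperone that loads Cenpa at centromeres, read -0.023, 0.058 and -0.23 in WT pools and 1.32, 0.87 and 0.93 in MUT pools, and differed by 1.10 ± 0.15 (adjusted p = 0.00176). Sgo1, the shugoshin that protects cohesion at centromeres, read 0.26, 0.17 and 0.19 in WT pools and 0.86, 0.91 and 0.87 in MUT pools, and differed by 0.67 ± 0.091 (adjusted p = 0.00186). Ncapd2, a condensin subunit, read -0.052, 0.22 and -0.035 in WT pools and 1.02, 0.74 and 0.89 in MUT pools, and differed by 0.84 ± 0.12 (adjusted p = 0.00247). For Spc25 of the Ndc80 complex (-0.34, adjusted p = 0.0813) and Depdc1b (-0.31, adjusted p = 0.0882), picked after their values were seen, every MUT pool lay below every WT pool. The count fell to 24 without WT pool 3 and to 5 with slide row as a block, where 6.83% and 3.44% of all tested genes were called higher.

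Genes of S phase were higher too. Of 20 DNA replication genes 18 were called higher and 0 lower, beside 14.0% and 18.8% of all tested genes. Their median difference was 0.59, and 0 were lower at an unadjusted p under 0.05 in limma. Mcm3, of the replicative helicase, differed by 1.10 ± 0.12 (adjusted p = 0.000829), Mcm6 by 0.89 ± 0.13 (adjusted p = 0.00263) and Mcm4 by 0.82 ± 0.12 (adjusted p = 0.00267). Rrm2, a ribonucleotide reductase subunit (0.14, adjusted p = 0.444), and Orc1 of the origin recognition complex (0.32, adjusted p = 0.0652) were not called. With slide row as a block 3 of the 20 were called, beside 3.44% of all tested genes called higher, with a median of 0.55. Of 6 tested G1 cyclins and kinases 3 were called higher, beside 14.0% of all tested genes. These were Ccnd2, a D-type cyclin (0.99 ± 0.14, adjusted p = 0.00239), Ccne1, cyclin E1 (0.47 ± 0.12, adjusted p = 0.0253), and Cdk2 (0.63 ± 0.19, adjusted p = 0.0439). None of the 6 was called with slide row as a block, where 3.44% of all tested genes were called higher.

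Among cyclin-dependent kinase inhibitors and anti-proliferative genes some were lower. Of 9 tested, 4 were called lower and 0 higher in limma, beside 18.8% and 14.0% of all tested genes. At an unadjusted p under 0.05 in the same fit 5 were lower and 0 higher, beside 3656 and 3034 of all 14585 tested genes. The median difference was -0.37. The groups overlapped for Btg1, Btg2, Cdkn1c and Cdkn2c. Cdkn1a, which encodes the inhibitor p21, read -0.044, -0.057 and 0.023 in WT pools and -0.86, -0.93 and -0.78 in MUT pools, all below WT, and differed by -0.83 ± 0.096 (adjusted p = 0.000954; 0.13 with spike-in scaling). Cdkn2b, which encodes p15, read 0.20, 0.15 and 0.50 in WT pools and -0.84, -0.97 and -0.62 in MUT pools, and differed by -1.09 ± 0.14 (adjusted p = 0.00144; -0.13 with spike-in scaling). Tob1, an anti-proliferative protein, read -0.10, -0.10 and 0.25 in WT pools and -1.50, -0.74 and -0.81 in MUT pools, and differed by -1.03 ± 0.21 (adjusted p = 0.0104; -0.075 with spike-in scaling). The fourth, Cdkn2d, differed by -0.50 ± 0.11 (adjusted p = 0.0132), with 0.46 under spike-in scaling. With spike-in scaling 0 of the 9 were lower and 3 were higher. Their median of 0.59 lay below that of all tested genes, 0.94, an order that a shift common to all genes keeps. With median centring 2 of the 9 were lower (Cdkn2b and Tob1), and with slide row as a block 2 were (Cdkn1a and Cdkn2b).

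A mixed list of 12 genes of cell cycle transcription (MuvB and DREAM genes, Mybl2 and Rb1) had 2 higher, 1 lower and a median of 0.11. With 14.0% of all tested genes called higher and 18.8% lower, these counts were near those of the whole array. Rbl1, the pocket protein p107 of DREAM, differed by 0.60 ± 0.10 (adjusted p = 0.00463) and Tfdp1, the dimer partner of E2F factors, by 0.75 ± 0.19 (adjusted p = 0.023). Rb1, the retinoblastoma protein, read -0.013, -0.23 and 0.0047 in WT pools and -0.66, -1.09 and -0.94 in MUT pools, and differed by -0.81 ± 0.14 (adjusted p = 0.0046; 0.14 with spike-in scaling). Mybl2, the B-Myb partner of MuvB in G2, differed by 0.15 (adjusted p = 0.385). Rb1 was not called with median centring (adjusted p = 0.0983), and with slide row as a block 0 of the 12 were called.

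**Figure D3:**
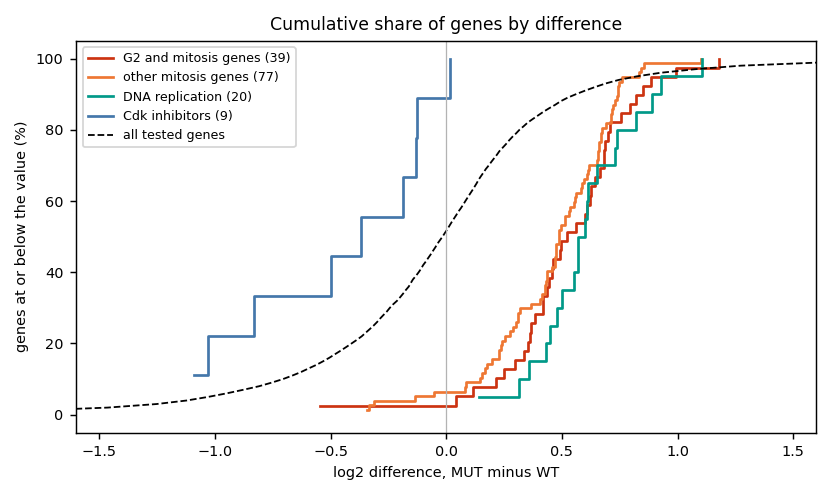
Cumulative share of genes (vertical axis, percent) at or below a log2 difference (horizontal axis) for the 39 mitosis genes, 77 other mitosis genes, 20 DNA replication genes, 9 Cdk inhibitors and anti-proliferative genes and all tested genes (dashed). The first 3 lists have medians of 0.52, 0.49 and 0.59 and lie right of the dashed line over most of their length, while the inhibitors, with a median of -0.37, lie left of it.

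Markers of other kidney cells differed between the groups too, and their part in the result was not tested. Markers of the sorted lineage were lower in MUT: 9 of 11 ureteric lineage genes (4 with spike-in scaling, where 1 was higher), 6 of 6 of principal cells and 5 of 5 of intercalated cells. Over all tested genes 18.8% were called lower and 14.0% higher, and with spike-in scaling 62.02% were called higher. The median over the ureteric list was -0.079 to 0.22 in WT pools and -1.54 to -0.91 in MUT pools. For principal cells the median was -0.14 to -0.0030 and -2.20 to -1.92, and for intercalated cells -0.36 to 0.30 and -2.86 to -2.39. Ret and Wnt11, genes of the dividing ureteric tips, were the 2 ureteric genes not called, and for both WT pool 2 stood above the other 5 pools, at 1.97 and 1.19. Each tested gene of these lists was well above background on at least 1 array of each group and so was detected in both.

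Markers of 3 other sources were higher in MUT, where 14.0% of all tested genes were called higher and 18.8% lower. Of 6 nephron progenitor genes 5 were higher, among them Six2 by 2.56, with medians of 0.16 to 0.26 in WT pools and 1.33 to 2.47 in MUT pools. All 6 stroma genes were higher, among them Meis1 by 2.94, with medians of -1.15 to 0.078 in WT pools and 1.49 to 1.72 in MUT pools. Of 6 leukocyte genes 5 were higher and Ptprc was lower (-0.43, not called with median centring or spike-in scaling), with medians of -0.64 to 0.061 and 0.24 to 0.90. All 5 endothelial genes were lower (0 with spike-in scaling), with medians of 0.10 to 0.25 and -0.91 to -0.70, as were the 3 tested erythroid genes, with medians of -1.30 to 0.24 and -3.04 to -2.40. In MUT pools 1, 2 and 3 the progenitor median was 2.28, 2.47 and 1.33, the stroma median 1.72, 1.49 and 1.57, and the mitosis median 0.63, 0.50 and 0.61. With slide row as a block 2 of 6 progenitor, 4 of 6 stroma and 0 of 6 leukocyte genes were higher, beside 3.44% of all tested genes. In that fit 6 of 11 ureteric genes were lower.

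**Figure D4:**
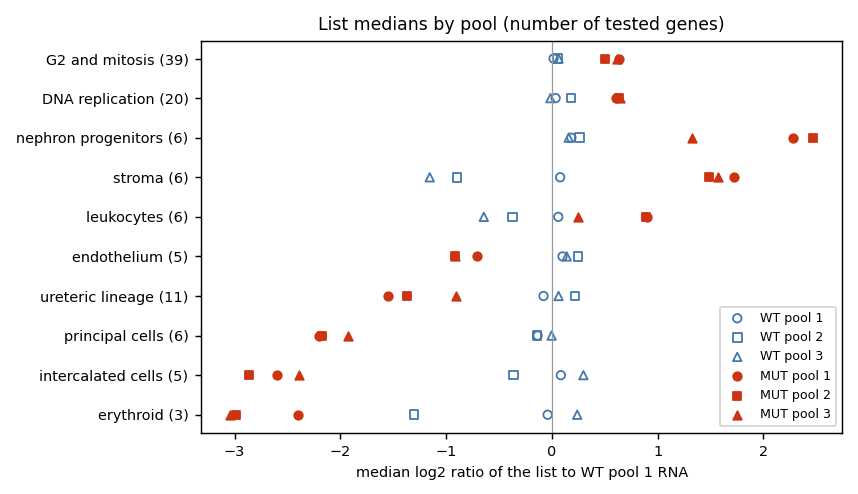
Median log2 ratio to WT pool 1 RNA (horizontal axis) over the tested genes of each list in each pool, with open blue symbols for WT and filled red symbols for MUT pools and the number of tested genes in brackets. The mitosis medians lie between 0.016 and 0.063 in WT and between 0.50 and 0.63 in MUT, while the progenitor and stroma medians rise further and the ureteric, principal and intercalated medians fall.

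Across the processing alternatives the distance of these genes from the rest of the array moved less than their count. The median over the mitosis genes exceeded that over all tested genes by 0.54 in the values reported above and by 0.59 with median centring. It did so by 0.66 in the scanner software's ratios and by 0.56 with slide row as a block. Spike-in scaling shifts all probes of an array by the same amount, so its distance of 0.54 was set in advance. All 30 genes called higher had a difference above 0 in each of the 19 alternatives that tested them, and 4 of them (Ccna2, Cenpe, Nuf2 and Top2a) were called in each. Spike-in scaling raised all of these differences by nearly the same amount, so it could not turn their sign. Nor could leaving out 1 pool, array weights or slide row as a block, as the groups of these genes did not overlap. The filters, the pool number block and the trend and robust eBayes left the differences as they were.

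**Figure D5:**
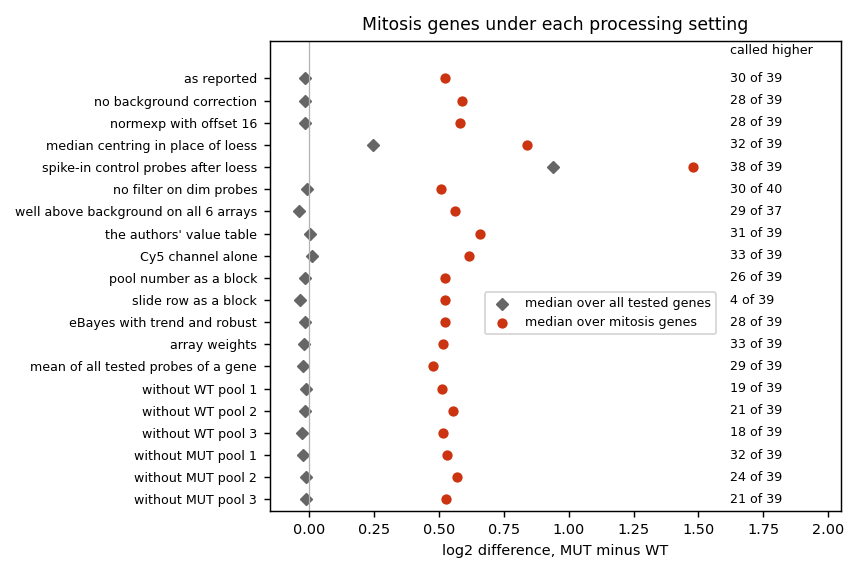
Median log2 difference over the mitosis genes (red circles) and over all tested genes (grey diamonds) under each processing setting (rows), with the number of mitosis genes called higher of those tested at the right. The red circles lie right of the diamonds in every row, at 0.48 to 1.48, while the count runs from 4 of 39 to 38 of 39.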

How the data were processed

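Total RNA (0.5 µg a reaction) of 3 WT and 3 MUT pools was measured on 6 two-colour Agilent mouse arrays on 1 slide, each pool in Cy5 against WT pool 1 RNA in Cy3, with no dye swap. The submitters' processing notes name Agilent Feature Extraction 10.7.3.1. From the authors' deposited scanner files the spot intensity (median signal) and the median background around it were used. The deposited value table holds the scanner software's log10 ratio of Cy5 to Cy3, within 0.00499 of the scanner files on every array and with a median of 0 on each. It was used as an alternative.

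The normexp method with an offset of 50 removed background, which shrinks the log2 differences of dim probes. Loess within each array, with weight 0 for control spots, normalized the log2 ratios. Controls and outlier flags were then dropped, no spot was saturated, and spots of a probe were averaged. A probe was tested if all 3 arrays of either group had it well above background in Cy5 (29002 of 55681, 52.1%). The test of MUT against WT was limma (lmFit, eBayes) over the 6 arrays, without covariates. Benjamini-Hochberg adjustment ran over all tested probes, and a call needs an adjusted p under 0.05. The p-values measure the spread between pools, whose make-up is not given. A gene is its brightest tested probe. Names came from RefSeq accessions, without versions, matched to a GRCm38.p6 table (27509 probes). The file headers name another assembly, so only promoter coordinates of the RefSeq table are given. The pipeline was tested on simulated data.

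The 40 genes and all lists were chosen with earlier results of these data known. Pool values are given for the 3 genes of smallest p in each role, for a gene called against the majority, and for called genes of other lists, at most 3 in each direction by p. The others are given by their difference. Genes named for a single pool or as exceptions were chosen after their values were seen. Alternatives covered background, normalization, filter, the value table, Cy5 without Cy3, blocks for pool number or slide row, trend and robust eBayes, array weights, the mean of a gene's probes and each pool left out. R 4.3.3, limma 3.58.1, data.table (version 1.17.8), Python 3.11.15, pandas 2.3.3 and matplotlib 3.10.9 were used.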

Additional observations from a re-analysis of the deposited data

How the results depend on the processing

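All 30 mitosis genes called higher kept a difference above 0 in all of the 19 alternatives that tested them. Of these genes 4 were called in each, so the count was not steady. Spike-in scaling, which raised all of these differences, could not have turned their direction. Nor could most other alternatives, as every MUT pool was above every WT pool for these genes. Those that change the values themselves, such as background, normalization and the Cy5 channel alone, could have. The median difference of 0.52 was 0.59 with no background correction, 0.58 with an offset of 16, 0.84 with median centring, 1.48 with spike-in scaling, 0.66 with the authors' value table and 0.62 with the Cy5 channel alone. With slide row as a block 2194 probes, 4 mitosis genes higher, 0 lower and 5 other mitosis genes were called. That fit sets the 3 MUT pools against WT pool 1 alone, and why fewer were called was not tested. With spike-in scaling 19207 probes, 0 mitosis genes lower and 74 other mitosis genes were called, and with median centring 0 mitosis genes were lower. Leaving out 1 pool gave 3831 to 9536 called probes, 18 to 32 mitosis genes higher, 1 lower each time, and 24 to 53 other mitosis genes. Signs turned for Cdc25b with spike-in scaling (0.41) and for Cenpf with the Cy5 channel alone (-0.10), without WT pool 1 (-0.083) and without MUT pool 2 (-0.0034), in a range of -0.083 to 0.13 over the fits without 1 pool. The causes were not tested. Signal over background limits Aurkb, Cenpf and the dim probes of Cdk1 and Nuf2.

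With pool number as a replicate block 7245 probes, 26 mitosis genes higher, 1 lower and 50 other mitosis genes were called, and Plk1, Aurka, Birc5 and Bub3 lost their calls. Deviations of same-numbered pools correlated at 0.14, 0.072 and 0.20, and each WT pool correlated best with its own number, a hint from the data and not from the design. The labels do not say that a number marks a shared litter or day.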
